A study of Homo sapiens with 4 samples.

Results

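The genes described here are 10 families of cancer-testis antigens. They were taken as every probe whose gene symbol in the platform annotation begins with GAGE, SPANX, PAGE, XAGE, MAGEA, MAGEC, SSX, CT45, CTAG or VCX. This gave 74 of 20043 gene symbols, read by 140 of the 47322 probes on the array. Of these, 11 carry the prefix only, being 10 probes for 6 CTAGE genes and 1 for SSX2IP, which belong to other gene families and lie on other chromosomes. The remaining 129 probes read 67 gene symbols and are the subject of what follows. All 65 of these genes that could be matched to a RefSeq record by gene identifier lie on chromosome X. GAGE4 and GAGE7 had no match.

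Cancer-testis antigens are proteins whose genes are active in germ cells of the testis and silent in most other adult tissues. They are switched on again in many tumours, among them melanoma and some carcinomas, where peptides cut from them can be recognised by T cells. Many of the X-linked families consist of near-identical copies lying side by side, and methylation of CG dinucleotides in their promoters is the best known means by which they are kept silent in somatic cells.

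An Illumina bead array with 1 colour was run on RNA of 4 samples, 1 array per group and no replicates. The Dicer antibody array held RNA labelled as MCF10A cells, a non-tumorigenic breast epithelial line, that received exosomes, small vesicles shed by cells, of the breast cancer line MDA-MB-231 loaded with an antibody against Dicer, the enzyme that cuts microRNA precursors. The exosome array held MCF10A cells given MDA-MB-231 exosomes without the antibody, the MDA-MB-231 array the cancer line itself, and the untreated array MCF10A cells with no addition. All cells grew in medium whose serum had been depleted of exosomes. The labels give no exosome dose or exposure time, and they do not say how many cultures stand behind an array. The labels pose the question of how cancer exosomes, and the Dicer in them, alter the receiving cells. With 1 array per group no test can be made, so every difference below is between 2 single arrays and carries no error estimate. The number of arrays limits the precision.

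The arrays differed in how much they detected. A probe is called detected where its deposited detection p, which ranks it among that array's negative controls, was below 0.01. By this measure 50.4% of the 30110 probes with a single gene symbol were detected on the Dicer antibody array, 5.61% on the exosome array, 5.74% on the array of MDA-MB-231 cells and 50.6% on the untreated array. Signals are in scanner units as deposited, with the background included, and the median over all probes lay at 62.5 units on the Dicer antibody array, 52.7 on the exosome array, 51.8 on the array of MDA-MB-231 cells and 58.7 on the untreated array. Where 1 array of a comparison detected few probes and the other many, the groups and this split cannot be told apart. On the untreated and Dicer antibody arrays the labelled cell type, MCF10A, was not borne out by its markers. Keratins KRT5 and KRT14, which mark basal breast epithelium, and the epithelial gene CDH1 (E-cadherin) were not detected on any array. Of 7 measured markers of breast epithelium only EPCAM was detected on the Dicer antibody array, at 108.4 units, and on the untreated array, at 77.3 units. On the exosome array 0 were detected and on the array of MDA-MB-231 cells 0. Those arrays detected few probes of any kind, and the latter is not labelled MCF10A, so their counts do not bear on the label. All 10 fibroblast markers were detected on the untreated array, with a summed signal of 82957 units, while 6 were detected on the Dicer antibody array, with a summed signal of 2064 units. Array names below are those of the labels.

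The cancer-testis families were detected on the Dicer antibody array and almost nowhere else. Of the 129 probes, 60 (46.5%) were detected on the Dicer antibody array, against 2 on the exosome array, 2 on the array of MDA-MB-231 cells and 2 on the untreated array (1.55% each). The detected probes on the Dicer antibody array covered 39 of the 67 genes. A detection p below 0.01 is met by 1% of control probes by construction. The exosome and MDA-MB-231 arrays detected only 5.61% and 5.74% of all named probes, so missing detection there says little about the families. The untreated array detected about as large a share of all named probes as the Dicer antibody array did, so that the share of the families stood near that of all named probes on the Dicer antibody array and far under it on the untreated array. These are the values for which the families were chosen, and they are given as a description. In RNA from a whole culture, more cells that express a gene and more RNA of it per cell cannot be told apart.

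In all, 57 probes were detected on the Dicer antibody array alone, none was detected on all 4 arrays, and 68 were detected on no array. The median signal of the 129 probes was 67.5 units on the Dicer antibody array, 50.8 on the exosome array, 50.4 on the array of MDA-MB-231 cells and 48.3 on the untreated array. Above 1000 units stood 26 probes on the Dicer antibody array, and on the other 3 arrays no probe of the families read above 82.1 units. Counting dim probes too, 87 of the 129 were brighter on the Dicer antibody array than on each other array. The same counts were not made over all named probes. Over all probes the median signal was also highest on the Dicer antibody array, at 62.5 units against 52.7 (exosome), 51.8 (MDA-MB-231) and 58.7 (untreated). How far these counts go beyond that difference between arrays was not tested.

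**Figure D1:**
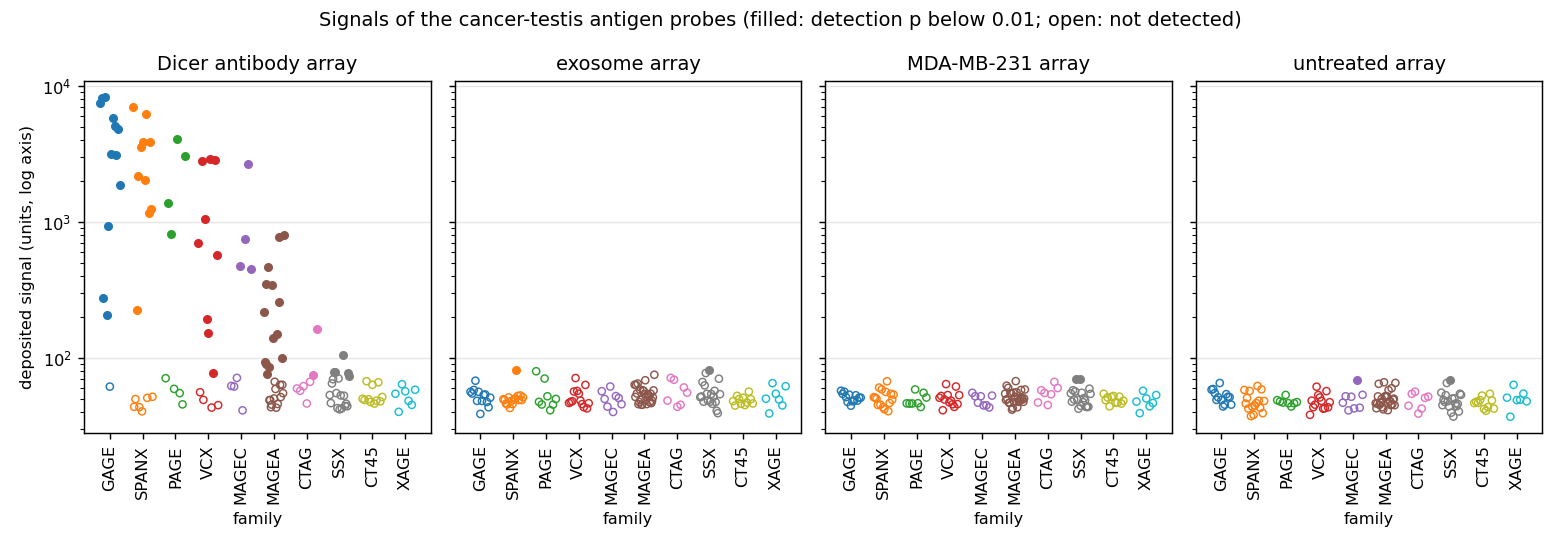
Deposited signal of each of the 129 probes (log axis, scanner units) by family on the Dicer antibody, exosome, MDA-MB-231 and untreated arrays, with filled points for a detection p below 0.01 and open points otherwise. Bright filled points are seen on the Dicer antibody array alone, up to 8309 units, while the other 3 arrays lie at or below 82.1 units.

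The promoters of 8 members are printed here, because methylation of CG dinucleotides in such windows is the best known control of these families. A promoter is the window of 300 bases around the start of the gene in RefSeq, read in the direction of the gene. Capitals mark CG dinucleotides, the sites of DNA methylation in mammals. GAGE12G, SPANXA2, PAGE5, VCX3B, MAGEC2 and MAGEA6 stand for families with probes detected on the Dicer antibody array, and MAGEA4 and SPANXN5 are relatives that were not detected on any array.
GAGE12G (GRCh38.p14, chrX:49570147-49570446, plus strand): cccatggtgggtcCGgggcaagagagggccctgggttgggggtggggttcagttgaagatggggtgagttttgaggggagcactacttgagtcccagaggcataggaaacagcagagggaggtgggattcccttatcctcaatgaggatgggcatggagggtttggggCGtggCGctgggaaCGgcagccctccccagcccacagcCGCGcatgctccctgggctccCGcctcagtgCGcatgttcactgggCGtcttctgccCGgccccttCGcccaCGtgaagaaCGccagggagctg
SPANXA2 (GRCh38.p14, chrX:141589458-141589757, plus strand): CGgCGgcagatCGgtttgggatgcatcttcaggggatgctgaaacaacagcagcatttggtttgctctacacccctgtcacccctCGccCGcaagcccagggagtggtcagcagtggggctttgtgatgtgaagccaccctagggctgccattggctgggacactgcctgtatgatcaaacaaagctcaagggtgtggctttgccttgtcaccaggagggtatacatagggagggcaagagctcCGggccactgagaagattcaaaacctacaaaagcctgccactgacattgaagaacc
PAGE5 (GRCh38.p14, chrX:55220096-55220395, plus strand): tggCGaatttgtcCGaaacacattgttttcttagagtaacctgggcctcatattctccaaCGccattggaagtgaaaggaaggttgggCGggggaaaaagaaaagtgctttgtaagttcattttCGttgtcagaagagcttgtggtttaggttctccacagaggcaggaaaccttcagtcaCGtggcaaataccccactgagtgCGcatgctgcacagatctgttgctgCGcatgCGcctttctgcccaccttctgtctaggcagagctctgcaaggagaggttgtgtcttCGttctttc
VCX3B (GRCh38.p14, chrX:8464580-8464879, plus strand): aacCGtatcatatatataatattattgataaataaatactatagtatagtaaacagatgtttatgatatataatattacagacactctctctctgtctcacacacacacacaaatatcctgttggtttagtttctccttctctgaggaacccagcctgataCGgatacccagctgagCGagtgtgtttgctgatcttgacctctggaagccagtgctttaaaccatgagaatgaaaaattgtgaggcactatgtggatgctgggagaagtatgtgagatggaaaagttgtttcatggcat
MAGEC2 (GRCh38.p14, chrX:142205241-142205540, minus strand): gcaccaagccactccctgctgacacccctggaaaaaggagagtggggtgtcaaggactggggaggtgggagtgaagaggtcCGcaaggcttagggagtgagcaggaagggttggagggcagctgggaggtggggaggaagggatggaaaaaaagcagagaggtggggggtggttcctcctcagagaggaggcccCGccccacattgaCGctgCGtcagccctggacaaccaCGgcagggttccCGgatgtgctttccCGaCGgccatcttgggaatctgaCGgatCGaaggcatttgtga
MAGEA6 (GRCh38.p14, chrX:152769640-152769939, minus strand): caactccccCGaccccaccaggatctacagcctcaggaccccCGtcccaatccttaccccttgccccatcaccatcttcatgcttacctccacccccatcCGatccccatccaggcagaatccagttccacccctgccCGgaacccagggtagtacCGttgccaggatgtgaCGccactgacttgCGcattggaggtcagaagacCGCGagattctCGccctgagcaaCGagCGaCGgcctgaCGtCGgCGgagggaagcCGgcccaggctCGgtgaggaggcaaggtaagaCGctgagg
MAGEA4 (GRCh38.p14, chrX:151912224-151912523, plus strand): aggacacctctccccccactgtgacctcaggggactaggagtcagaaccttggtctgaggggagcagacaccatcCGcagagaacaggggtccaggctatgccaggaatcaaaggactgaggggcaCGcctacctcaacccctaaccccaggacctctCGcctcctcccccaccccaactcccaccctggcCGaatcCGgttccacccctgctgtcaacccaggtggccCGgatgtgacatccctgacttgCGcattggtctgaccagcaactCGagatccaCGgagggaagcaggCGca
SPANXN5 (GRCh38.p14, chrX:52797378-52797677, minus strand): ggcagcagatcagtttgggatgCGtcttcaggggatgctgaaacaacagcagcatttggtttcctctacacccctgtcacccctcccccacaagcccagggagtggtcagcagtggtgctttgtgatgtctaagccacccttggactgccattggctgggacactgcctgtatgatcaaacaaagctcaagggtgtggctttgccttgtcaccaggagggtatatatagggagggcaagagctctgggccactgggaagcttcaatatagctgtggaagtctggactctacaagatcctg

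GAGE genes encode small acidic proteins without a fixed fold, first found as tumour antigens seen by T cells. Of 13 GAGE probes, 12 were detected on the Dicer antibody array, reading 11 of the 12 GAGE genes, and none was detected on the exosome, MDA-MB-231 or untreated array. The first GAGE4 probe read 8309 units on the Dicer antibody array, against 68.1 on the exosome array, 51.6 on the array of MDA-MB-231 cells and 49.2 on the untreated array. Its second probe read 8152 units on the Dicer antibody array, against 54.8 (exosome), 54.5 (MDA-MB-231) and 59.1 (untreated). Both GAGE4 probes thus stood far above background on 1 array and within it on 3. A probe detected on only 1 of 2 arrays has a bound as its fold, taken here at its smallest over 6 scalings of the arrays, and the Dicer antibody array was at least 42.4-fold and 41.5-fold higher than the untreated array for these 2 probes.

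GAGE12G, whose promoter is printed above, read 7447 units on the Dicer antibody array, against 56.4 (exosome), 57.4 (MDA-MB-231) and 58.5 (untreated), at least 35.7-fold higher than on the untreated array. GAGE12J read 5838 units on the Dicer antibody array, against 53.5 (exosome), 48.7 (MDA-MB-231) and 45.4 (untreated), at least 23.7-fold higher. GAGE12C read 5127 units on the Dicer antibody array, against 53.9 (exosome), 53.2 (MDA-MB-231) and 54.2 (untreated), at least 19.5-fold higher. These copies shared the same pattern, with a bright signal on the Dicer antibody array and none above background elsewhere. GAGE12H read 4819.6 units on the Dicer antibody array, against 43.4 (exosome), 51.1 (MDA-MB-231) and 51.5 (untreated), at least 17.7-fold higher. GAGE12F read 3185 units on the Dicer antibody array, against 48.3 (exosome), 48.0 (MDA-MB-231) and 44.0 (untreated), at least 10.3-fold higher. GAGE12B read 3095 units on the Dicer antibody array, against 47.5 (exosome), 48.6 (MDA-MB-231) and 51.9 (untreated), at least 9.88-fold higher.

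GAGE2A read 1859 units on the Dicer antibody array, against 51.1 (exosome), 51.1 (MDA-MB-231) and 45.4 (untreated), at least 6.58-fold higher than on the untreated array. GAGE12E read 929 units on the Dicer antibody array, against 56.4 (exosome), 53.7 (MDA-MB-231) and 65.5 (untreated), at least 4.28-fold higher. Both had a smaller bound than the copies above, with the Dicer antibody array again the highest. GAGE7 read 277 units on the Dicer antibody array, against 58.2 (exosome), 56.5 (MDA-MB-231) and 55.2 (untreated), at least 2.16-fold higher. For GAGE12D the bound was under 2-fold in the least favourable scaling. It read 206 units on the Dicer antibody array, against 48.4 (exosome), 47.5 (MDA-MB-231) and 51.4 (untreated), at least 1.82-fold higher. GAGE10 was the only GAGE gene not detected, at 61.6 units on the Dicer antibody array. Because the GAGE copies are near-identical, a probe named for one may read several, and the 12 detected probes cannot be counted as 11 separately active genes.

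SPANX genes encode proteins of the sperm nucleus and fall into the SPANXA to SPANXD group and the SPANXN group. Of 16 SPANX probes, 10 were detected on the Dicer antibody array. They read every gene of the A to D group on the array and 1 gene of the N group. SPANXA2 read 7045 units on the Dicer antibody array, against 49.7 (exosome), 51.5 (MDA-MB-231) and 58.2 (untreated), at least 32.2-fold higher than on the untreated array. SPANXC read 2051 units on the Dicer antibody array, against 50.4 (exosome), 56.3 (MDA-MB-231) and 46.6 (untreated), at least 7.01-fold higher. SPANXB1 was the one SPANX gene detected on a second array. It read 6184 units on the Dicer antibody array, against 82.1 (exosome, detected), 67.4 (MDA-MB-231) and 62.3 (untreated), at least 26.2-fold higher than on the untreated array. Its signal on the exosome array lay just above the lowest detected signal there, 81 units.

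SPANXD had 4 probes and SPANXA1 had 2, and all were detected on the Dicer antibody array alone. The SPANXD probes read 3895, 3547, 2198 and 1242 units there, against 48.2 to 51.3 on the exosome array, 42.0 to 60.6 on the array of MDA-MB-231 cells and 39.3 to 57.3 on the untreated array. The SPANXA1 probes read 3853 and 1162 units on the Dicer antibody array, against 53.0 and 49.1 (exosome), 54.6 and 46.7 (MDA-MB-231) and 58.8 and 43.0 (untreated). Every probe of these genes thus had its highest signal on the Dicer antibody array, with bounds from 4.86-fold to 13.0-fold over the untreated array. SPANXN3, of the N group, read 225 units on the Dicer antibody array, against 45.6 (exosome), 45.2 (MDA-MB-231) and 42.5 (untreated), at least 1.91-fold higher. SPANXN1, SPANXN2, SPANXN4 and SPANXN5 were not detected on any array.

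PAGE genes are relatives of GAGE. Of 8 PAGE probes, 4 were detected, all on the Dicer antibody array alone, and they read PAGE5, PAGE2B and PAGE2. The first PAGE5 probe read 4100.3 units on the Dicer antibody array, against 52.3 (exosome), 46.5 (MDA-MB-231) and 46.5 (untreated), at least 14.04-fold higher than on the untreated array. The second read 3079 units on the Dicer antibody array, against 50 (exosome), 51.2 (MDA-MB-231) and 47.4 (untreated), at least 9.84-fold higher. The third PAGE5 probe was not detected on any array. It read 71.0 units on the Dicer antibody array, against 79.9 (exosome), 46.4 (MDA-MB-231) and 49.0 (untreated), and gives no direction. PAGE2B read 1380.4 units on the Dicer antibody array, against 47.6 (exosome), 46.2 (MDA-MB-231) and 47.9 (untreated), at least 5.43-fold higher. PAGE2 read 810 units on the Dicer antibody array, against 45.5 (exosome), 46.3 (MDA-MB-231) and 47.0 (untreated), at least 3.96-fold higher. PAGE1, PAGE3 and PAGE4 were not detected, with PAGE4 at 45.6 units on the Dicer antibody array.

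VCX genes encode small, highly charged proteins of male germ cells. Of 13 VCX probes, 9 were detected, all on the Dicer antibody array alone, and each of the 4 VCX genes had at least 1 detected probe. VCX3B read 2897 units on the Dicer antibody array, against 48.6 (exosome), 48.6 (MDA-MB-231) and 48.4 (untreated), at least 9.21-fold higher than on the untreated array. VCX3A read 2847 units on the Dicer antibody array, against 63.4 (exosome), 61.7 (MDA-MB-231) and 57.1 (untreated), at least 9.07-fold higher. VCX itself read 2807 units on the Dicer antibody array, against 48.1 (exosome), 41.3 (MDA-MB-231) and 43.5 (untreated), at least 8.91-fold higher. The single VCX probe and the brightest probe of each VCX3 gene therefore gave bounds close to each other. A second VCX3A probe read 154 units on the Dicer antibody array, against 54.6 (exosome), 47.2 (MDA-MB-231) and 51.3 (untreated), at least 1.54-fold higher.

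VCX2 had 7 probes, and they disagreed. The 5 detected probes read 1051, 704, 569.9, 192 and 77.1 units on the Dicer antibody array, and the other two read 56.0 and 49.2 units. The same 5 probes read 42.6 to 71.2 units on the exosome array, 43.7 to 64.3 on the array of MDA-MB-231 cells and 38.2 to 61.5 on the untreated array. The bounds over the untreated array were 4.60-fold, 3.64-fold, 3.24-fold, 1.75-fold and 1.04-fold in the order of the first signals. The dimmest detected VCX2 probe thus differed little from the untreated array.

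MAGE proteins share a domain that binds RING-type ubiquitin ligases. MAGEC2, which partners with the ligase TRIM28, was detected by both of its probes on the Dicer antibody array. The first read 2670.5 units on the Dicer antibody array, against 50.8 (exosome), 43.3 (MDA-MB-231) and 43.1 (untreated), at least 8.54-fold higher than on the untreated array. The second read 745 units on the Dicer antibody array, against 52.5 (exosome), 44.9 (MDA-MB-231) and 68.5 (untreated). It was the only probe of the 10 families detected on both the Dicer antibody and the untreated array, so its difference is measured and not a bound, at 3.79 on the log2 scale after background correction and quantile normalization and 3.74-fold in the smallest of the 6 scalings. The 68.5 units on the untreated array lay just above the lowest detected signal there, 67.8 units.

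MAGEC1 was detected by both of its probes on the Dicer antibody array alone. The first read 474 units there, against 61.7 (exosome), 52.3 (MDA-MB-231) and 51.9 (untreated), at least 2.91-fold higher than on the untreated array. The second read 448 units on the Dicer antibody array, against 45.7 (exosome), 52.9 (MDA-MB-231) and 53.6 (untreated), at least 2.82-fold higher. MAGEC3 was not detected. Its highest probe read 71.4 units on the Dicer antibody array, just outside the detection threshold, whereas SSX2 at 73.3 units was just inside it.

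The MAGEA family had 27 probes for 13 symbols, and 14 probes of 7 genes were detected, all on the Dicer antibody array alone. MAGEA6, which like MAGEA3 binds TRIM28, read 805 units with its first probe on the Dicer antibody array, against 75.3 (exosome), 58.7 (MDA-MB-231) and 65.6 (untreated), at least 3.95-fold higher than on the untreated array. Its second probe read 470.2 units on the Dicer antibody array, against 45.8 (exosome), 46.8 (MDA-MB-231) and 45.2 (untreated), at least 2.90-fold higher. The third MAGEA6 probe read 352 units on the Dicer antibody array, against 63.3 (exosome), 62.6 (MDA-MB-231) and 46.3 (untreated), at least 2.46-fold higher. All MAGEA6 probes therefore placed the Dicer antibody array above the rest. MAGEA12 read 778.5 and 346 units on the Dicer antibody array, against 47.3 and 57.8 (exosome), 50.4 and 55.6 (MDA-MB-231) and 45.0 and 66.3 (untreated), at least 3.87-fold and 2.44-fold higher. MAGEA1, the founding human tumour antigen of this class, read 258 and 140.1 units on the Dicer antibody array, against 52.0 and 57.2 (exosome), 48.6 and 47.4 (MDA-MB-231) and 48.3 and 52.0 (untreated), at least 2.07-fold and 1.46-fold higher.

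Differences of the other detected MAGEA probes were smaller. One MAGEA3 probe read 217 units on the Dicer antibody array, against 63.6 (exosome), 54.6 (MDA-MB-231) and 46.5 (untreated), at least 1.87-fold higher than on the untreated array, and the other read 45.9 units on the Dicer antibody array. MAGEA9B read 149.8 and 93.1 units on the Dicer antibody array, against 54.1 and 51.7 (exosome), 50.4 and 49.2 (MDA-MB-231) and 58.1 and 42.7 (untreated), at least 1.51-fold and 1.16-fold higher. These signals stood above background on the Dicer antibody array but close to it. MAGEA2 read 99.5, 89.6 and 76.6 units on the Dicer antibody array, against 48.4, 54.9 and 64.9 (exosome), 49.5, 49.9 and 60.3 (MDA-MB-231) and 49.4, 52.2 and 64.6 (untreated), with bounds of 1.20-fold, 1.13-fold and 1.03-fold. MAGEA11, a partner of the androgen receptor, read 85.2 units on the Dicer antibody array, against 47.5 (exosome), 46.9 (MDA-MB-231) and 47.1 (untreated), at least 1.10-fold higher. The 6 symbols MAGEA2B, MAGEA4, MAGEA5P, MAGEA8, MAGEA9 and MAGEA10 were not detected on any array, MAGEA4 reading at most 55.1 units on the Dicer antibody array.

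The CTAG family includes CTAG1A and CTAG1B, which both encode the antigen NY-ESO-1, and CTAG2, which encodes LAGE-1. Of 7 CTAG probes, 2 were detected, on the Dicer antibody array alone. CTAG2 read 163 units on the Dicer antibody array, against 55.6 (exosome), 60.1 (MDA-MB-231) and 52.0 (untreated), at least 1.59-fold higher than on the untreated array. CTAG1A read 74.9 units on the Dicer antibody array, against 60.7 (exosome), 66.7 (MDA-MB-231) and 50.9 (untreated), a bound of 1.02-fold. CTAG1B was not detected.

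SSX genes encode repressors of transcription, several of which are fused to SS18 in synovial sarcoma. Of 19 SSX probes, 5 were detected on the Dicer antibody array, at 73.3 to 105.5 units, and the others lay at 41.9 to 70.7 units there. Between the Dicer antibody and untreated arrays 6 were compared and none differed by 2-fold. SSX1 read 105.5 and 78.8 units with its detected probes on the Dicer antibody array, against 51.9 and 62.9 (exosome), 50.7 and 56.8 (MDA-MB-231) and 50.5 and 53.3 (untreated), at least 1.24-fold and 1.05-fold higher than on the untreated array. SSX4B read 77.1 units on the Dicer antibody array, against 70.4 (exosome), 59.5 (MDA-MB-231) and 54.6 (untreated). SSX2 read 73.3 units on the Dicer antibody array, against 54.2 (exosome), 54.5 (MDA-MB-231) and 53.6 (untreated). These bounds did not exceed 1.04-fold. SSX3 read 78.8 units on the Dicer antibody array, against 77.5 (exosome), 69.5 (MDA-MB-231) and 65.5 (untreated), and was detected on the Dicer antibody and MDA-MB-231 arrays. SSX4 was the only probe of the families detected on the exosome, MDA-MB-231 and untreated arrays together, at 81.4, 69.5 and 68.7 units, while its 70.7 units on the Dicer antibody array missed the threshold.

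CT45 and XAGE, a GAGE-related family, were not detected on any array. The 11 CT45 probes read 46.2 to 67.5 units on the Dicer antibody array and 40.9 to 54.6 on the untreated array. The 7 XAGE probes read 40.2 to 64.1 units on the Dicer antibody array and 37.0 to 63.5 on the untreated array. All 5 CT45 genes and all 4 XAGE genes thus lay within the background.

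Between the Dicer antibody and untreated arrays, 61 of the 129 probes could be compared, being detected on at least 1 of them. After background correction and quantile normalization 48 were at least 2-fold higher on the Dicer antibody array, none was lower and 13 lay within 2-fold, with a median log2 difference of 3.79. Among all 16978 named probes compared in the same way, 14.6% were at least 2-fold higher and 16.2% lower, and the median was −0.0037. Since all but 1 of the 61 family probes were compared through detection on a single array, the choice of compared probes favours a difference, and the count is a description of these probes. By family, 2-fold higher probes made up 12 of 12 compared for GAGE, 10 of 10 for SPANX, 4 of 4 for PAGE, 8 of 9 for VCX, 4 of 4 for MAGEC, 9 of 14 for MAGEA, 1 of 2 for CTAG and 0 of 6 for SSX. The family medians were 6.29 for GAGE, 5.78 for SPANX, 5.33 for PAGE, 3.73 for VCX, 3.46 for MAGEC, 1.60 for MAGEA and 0.14 for SSX on the log2 scale.

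A bound can shrink with the scaling but cannot reverse, since the array that detected the probe fixes its direction. SSX4 was the 1 bound set by detection on the untreated array. Only the second MAGEC2 probe was measured on both arrays, and it stayed higher on the Dicer antibody array in every scaling. As above, the choice of compared probes favours a difference, and the counts are a description. In all 6 scalings 40 of the 61 probes (65.6%) stayed at least 2-fold higher on the Dicer antibody array, and 5.14% of all named probes compared did. These 40 were 11 GAGE, 9 SPANX, 4 PAGE, 6 VCX, 4 MAGEC and 6 MAGEA probes. The median of all named probes moved between −0.08 and −0.0019 over the scalings. The rest of chromosome X was read in the same way. Among its 1211 other named probes, 43.8% were detected on the Dicer antibody array and 43.2% on the untreated array, and of 602 compared 13.1% were at least 2-fold higher, 19.4% were lower and the median log2 difference was −0.08.

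**Figure D2:**
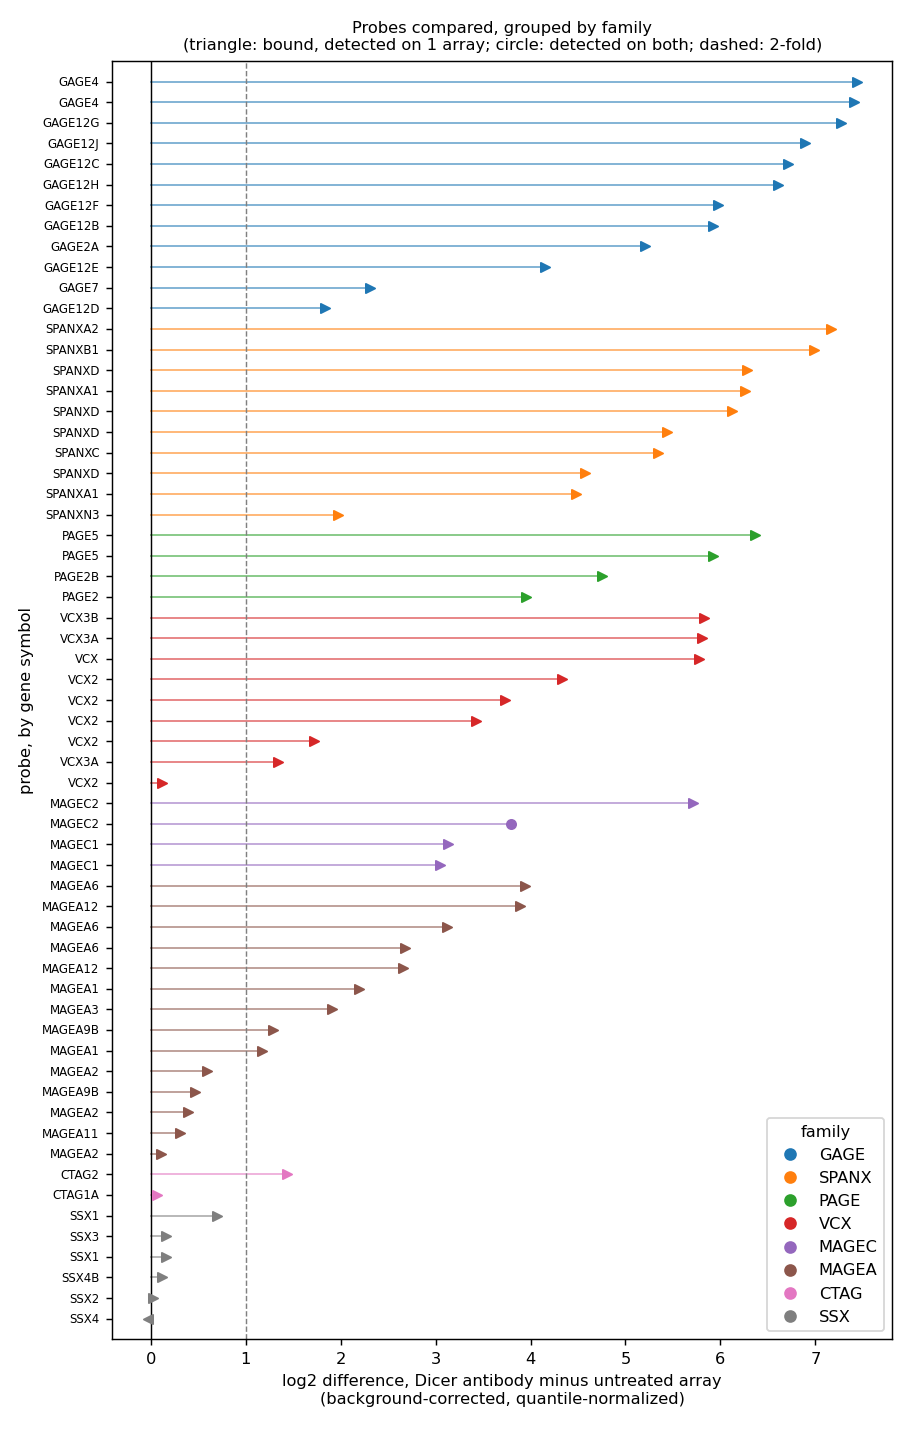
Log2 difference, Dicer antibody minus untreated array, of the 61 compared probes, grouped by family, with triangles for bounds and a circle for the 1 probe detected on both arrays. GAGE, SPANX and PAGE probes all lie beyond 2-fold (dashed line), and SSX probes all lie within it.

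The prefix-only genes stood apart. SSX2IP, which encodes a centrosome protein that binds SSX2, read 200.2 units on the Dicer antibody array, 51.9 on the exosome array, 52.4 on the array of MDA-MB-231 cells and 236.5 on the untreated array, a log2 difference of −0.15 between the Dicer antibody and untreated arrays. The 10 CTAGE probes were not detected on any array.

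Against the MDA-MB-231 array, the source of the exosomes, the comparison crosses the split in detection and shares the Dicer antibody array with the previous one. With the deposited signals alone, 48 of 61 probes were at least 2-fold higher on the Dicer antibody array and none was lower, where 69.0% of all named probes compared were higher and 0.189% lower. After background correction and quantile normalization 16 were higher and 2 lower, against 4.62% and 9.88% of all named probes. In all 6 scalings 12 of 61 stayed at least 2-fold higher (19.7%), and 3.47% of all named probes did. GAGE4 was at least 5.98-fold higher on the Dicer antibody array than on the MDA-MB-231 array, GAGE12G at least 5.30-fold, SPANXA2 at least 4.96-fold, SPANXB1 at least 4.36-fold and PAGE5 at least 2.52-fold. The only family probes detected on the MDA-MB-231 array were those of SSX3 and SSX4 described above, each at 69.5 units.

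The exosome array against the Dicer antibody array sets the 2 exosome treatments side by side, again across the split and with the same Dicer antibody array. With the deposited signals alone, 45 of 61 probes were at least 2-fold lower on the exosome array and none was higher, where 62.0% of all named probes compared were lower and 0.985% higher. After background correction and quantile normalization 15 were lower and 1 was higher, against 4.44% and 9.55% of all named probes. In all 6 scalings 12 of 61 stayed at least 2-fold lower (19.7%), and 3.38% of all named probes did. GAGE4 was at least 5.89-fold lower on the exosome array, GAGE12G at least 5.23-fold, SPANXA2 at least 4.90-fold, SPANXB1 at least 4.10-fold and PAGE5 at least 2.50-fold. How far the smaller number of detected probes on the exosome array enters these folds was not tested.

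The comparisons that leave out the Dicer antibody array held almost no family probe. Between the exosome and untreated arrays 3 probes were compared, SPANXB1, SSX4 and MAGEC2. After background correction and quantile normalization 2 of these were at least 2-fold higher on the exosome array and none was lower, where 9.48% of all named probes were higher and 4.92% lower. With the deposited signals alone none differed by 2-fold, where 1.01% of all named probes were higher and 63.1% lower. Between the MDA-MB-231 and untreated arrays 3 were compared, and after quantile normalization 2 were higher and none lower, where 9.86% of all named probes were higher and 5.06% lower. In the deposited signals alone all 3 lay within 2-fold, where 0.265% of all named probes were higher and 69.1% lower. Between the exosome and MDA-MB-231 arrays 3 were compared and none differed by 2-fold under either treatment of the signals, while 4.5% of all named probes were higher and 4.36% lower after quantile normalization, and 24.5% were higher and 1.13% lower in the deposited signals. No family probe passed 2-fold in all 6 scalings in these 3 comparisons.

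Probes of a single gene did not always give the same reading on the Dicer antibody array. Of 34 genes with at least 2 probes, all probes were detected for 10, none for 12 and some for 12. The same split was not counted over all genes of the array, where 50.4% of all named probes were detected. The counts therefore describe these genes and do not set them apart. In SPANXB1 1 probe was detected, at 6184 units, and the other two were not, at 50.9 and 51.9 units. VCX3A had detected probes at 2847 and 154 units and 1 at background, at 43.2 units. In VCX3B 1 probe was detected, at 2897 units, and the other was not, at 45.0 units. The third PAGE5 probe and the 2 undetected VCX2 probes described above also lay at background. In MAGEA3 1 probe was detected, at 217 units, and the other was not, at 45.9 units. Which transcripts or copies each probe matches was not analysed here.

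**Figure D3:**
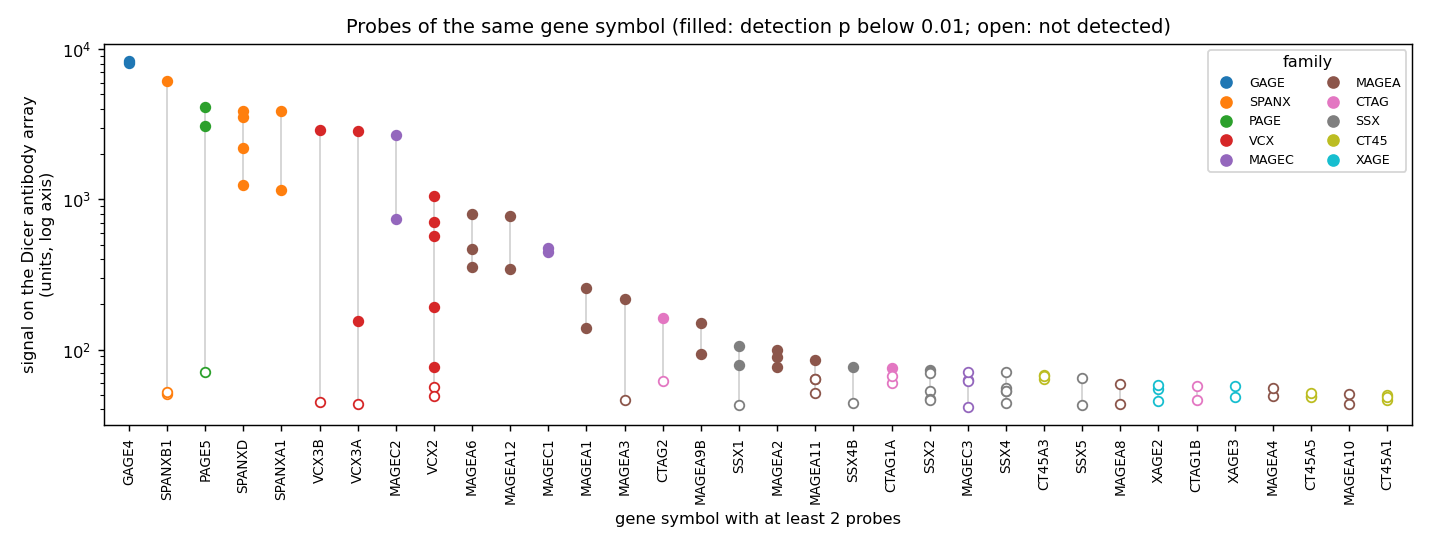
Signal of every probe on the Dicer antibody array (log axis, scanner units) for the 34 gene symbols with at least 2 probes, filled where detected and joined by a line. SPANXB1, PAGE5, VCX3A, VCX3B and VCX2 hold both bright detected probes and probes at background.

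Along chromosome X most members lie in runs of their own family, but PAGE, SSX, XAGE and SPANX were each split over separate stretches. The MAGEC genes lay between SPANX genes, and SPANXN5 lay between SSX2 and XAGE5. Genes detected and not detected on the Dicer antibody array were mixed in most of these runs. All 4 VCX genes came first among the members and were detected. In the GAGE run, GAGE12J, GAGE12B to GAGE12H and GAGE2A were detected, while GAGE10 before them and PAGE1 and PAGE4 after them were not. PAGE2B, PAGE2 and PAGE5 were detected and their neighbour PAGE3 was not. In the run that follows CT45, SPANXB1, SPANXC, SPANXA1, SPANXA2 and SPANXD were detected, MAGEC3 next to them was not, and MAGEC1 and MAGEC2 after it were. Of the SPANXN genes beyond MAGEC2 only SPANXN3 was detected. Among SSX genes SSX5 and SSX4 were not detected on the Dicer antibody array, with SSX4 at 70.7 units. SSX1, SSX3 and SSX4B beside them were detected there, at 105.5, 78.8 and 77.1 units with their brightest probes, close to the threshold. In the last MAGEA group MAGEA3, MAGEA12, MAGEA2, MAGEA6 and MAGEA1 were detected and MAGEA2B between them was not, and CTAG1B lay undetected between CTAG1A and CTAG2. A probe may read several neighbouring copies.

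**Figure D4:**
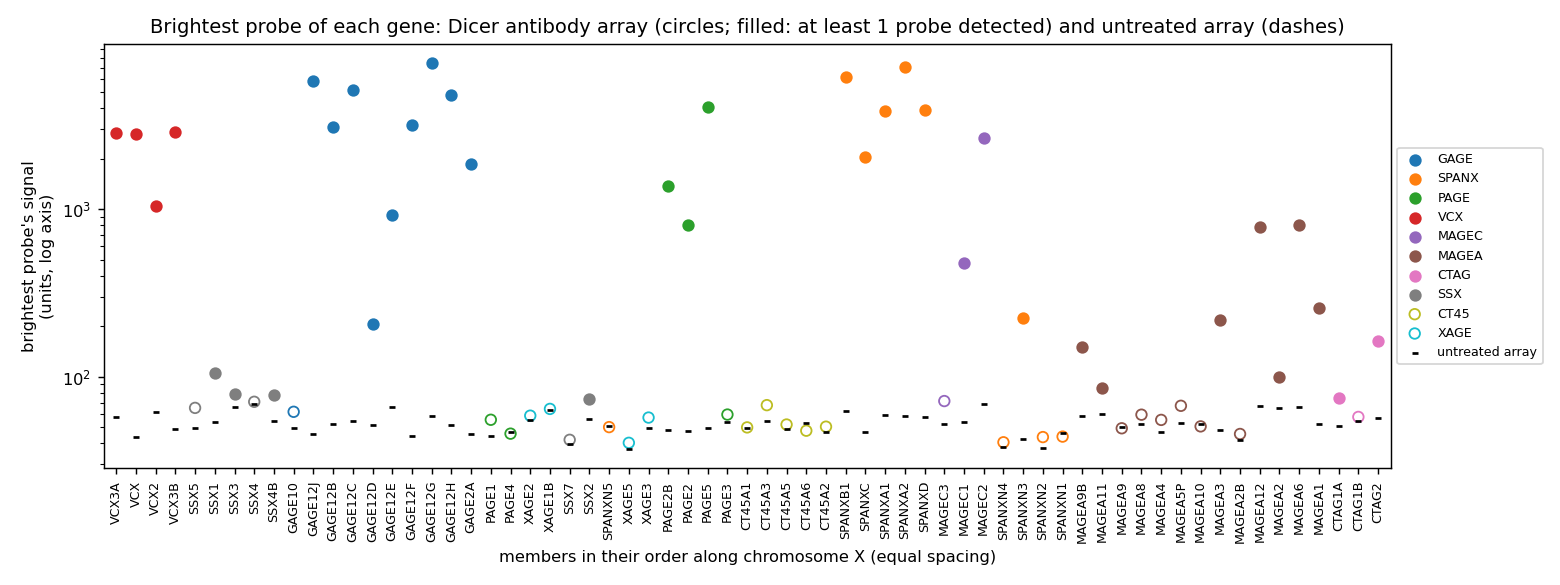
Signal of the brightest probe of each of 65 genes on the Dicer antibody array (circles, filled where at least 1 probe was detected) and on the untreated array (dashes), on a log axis, in their order along chromosome X with equal spacing. Filled circles above 1000 units are seen for VCX, GAGE, PAGE, SPANX and MAGEC genes, and the untreated signals lie at or below 68.7 units throughout.

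Promoter windows were available in RefSeq for 53 of the 67 genes. The 33 genes with a detected probe had a median of 12 CG dinucleotides (1 to 21) and a ratio of observed to expected CG of 0.444. The 20 genes with none detected had a median of 9.5 (1 to 17) and a ratio of 0.354. Over all 27305 genes in the table the median was 14 and the ratio 0.580, and over the 949 genes of chromosome X 14 and 0.581. Some of these windows are identical copies, so the genes are not separate observations, and a link between CG content and detection was not tested. Genes with few and with many CGs were both found among the detected. The detected gene VCX3A had 1 CG, and SPANXN5, which was not detected, also had 1, while MAGEA11, close to background, had 21. Within SPANX the 6 detected genes had 4 to 9 CGs and the 3 not detected had 1 to 3.

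**Figure D5:**
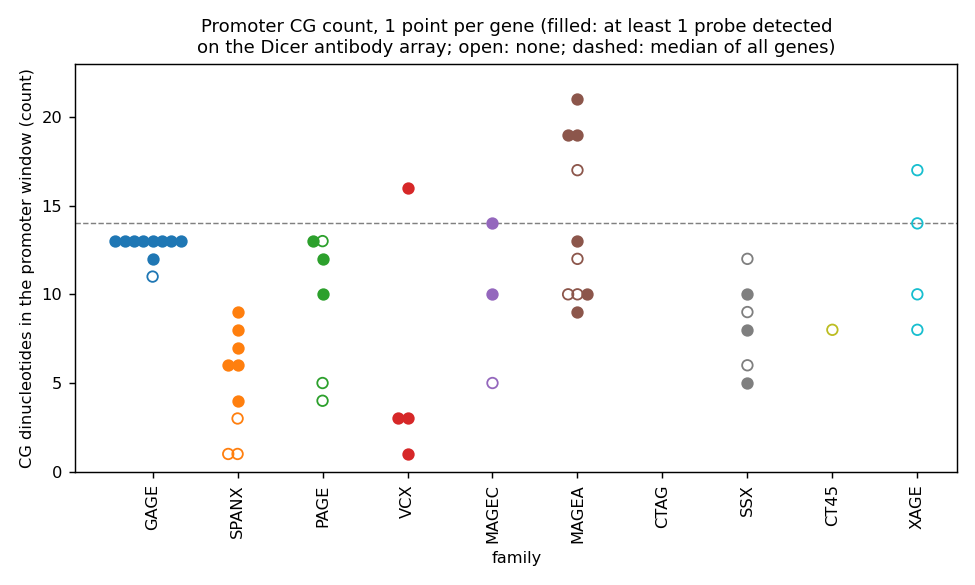
Number of CG dinucleotides in the promoter window of each of 53 genes by family, filled where a probe was detected on the Dicer antibody array, with the median of all genes in the table (14) as a dashed line. Most members lie below the line, GAGE genes at 11 to 13 and 3 of the 4 VCX genes at 1 to 3, and no window was available for CTAG.

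Several members shared the same promoter letters although their probes gave different readings, and readings of different probes are not levels to be ranked. The windows of GAGE12C, GAGE12D, GAGE12E, GAGE12F, GAGE12H, GAGE12J and GAGE2A were identical over 300 bases, and their probes read 206 to 5838 units on the Dicer antibody array. MAGEA3 and MAGEA6 had identical windows, as had SPANXA1 and SPANXA2, both detected. MAGEA9, not detected at 49.1 units, and MAGEA9B, detected at 149.8 units, also shared theirs. SPANXC matched SPANXA1 in 98.3% of positions, compared base by base without gaps. The hexamer CGGAAG, a core of ETS factor sites, was found on either strand in 2 of 53 windows (3.77%), against 19.9% of all genes in the table. The shorter GGAA, which it contains, was found in 48 of 53 (90.6%), against 95.5% of all genes. Identical windows were each counted in these shares, so the genes are not separate observations, and a difference from all genes was not tested. A match of letters is a description of these windows and not of binding.

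Other cancer-testis genes outside the 10 families were less confined to the Dicer antibody array. Of 54 measured, 27 were detected on the Dicer antibody array, 2 on the exosome array, 2 on the array of MDA-MB-231 cells and 14 on the untreated array. Between the Dicer antibody and untreated arrays 27 were compared, and 13 were at least 2-fold higher, 2 were lower and the median log2 difference was 0.90, beside the 14.6% higher and 16.2% lower of all named probes. The share of all named probes detected was 50.4% on the Dicer antibody array and 50.6% on the untreated array. MAGEB2, the X-linked relative of the MAGEA genes, read 303 units on the Dicer antibody array, against 54.8 (exosome), 55.2 (MDA-MB-231) and 51.2 (untreated), at least 2.27-fold higher. CSAG3, which lies among the MAGEA genes, read 321 units on the Dicer antibody array, against 49.0 (exosome), 46.1 (MDA-MB-231) and 60.1 (untreated), at least 2.34-fold higher. CSAG1 and the helicase gene DDX43 read 185 units each on the Dicer antibody array and were not detected on the untreated array, at 55.4 and 52.3 units. PRAME, a well-known tumour antigen on another chromosome, read 76.3 units on the Dicer antibody array, against 81.9 (exosome), 71.8 (MDA-MB-231) and 59.8 (untreated), and CTCFL, a germ-cell relative of CTCF, was not detected.

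Other members of this list were detected on both the Dicer antibody and the untreated array. The mitotic kinase TTK read 923 units on the Dicer antibody array and 140.2 on the untreated array, a log2 difference of 2.97. PBK, another mitotic kinase, read 1386 units on the Dicer antibody array and 220.3 on the untreated array, a difference of 2.92. CEP55, needed for the last step of cell division, read 1905 units on the Dicer antibody array and 365 on the untreated array, a difference of 2.67. IL13RA2, a decoy receptor for interleukin 13, read 2485 units on the Dicer antibody array and 382 on the untreated array, a difference of 2.97. In the other direction, MAGEE1 read 91.0 units on the Dicer antibody array and 267 on the untreated array, a difference of −1.69, and the germ-cell gene TDRD1 read 146 units on the Dicer antibody array and 358 on the untreated array, a difference of −1.29.

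A list of chromatin genes was also read, which holds DNA methyltransferases and their partners, TET demethylases, methyl-CpG binding proteins, histone deacetylases and methyltransferases, Polycomb genes and CTCF. Of 22 measured, 17 were detected on the Dicer antibody array and 17 on the untreated array, 5 of 18 compared were at least 2-fold higher and 2 lower, with a median log2 difference of 0.39, beside the 14.6% higher and 16.2% lower of all named probes. DNMT1, which copies methylation to new DNA strands, read 5889 units on the Dicer antibody array, against 53.1 (exosome), 39.8 (MDA-MB-231) and 3956 (untreated), a difference of 0.89 from the untreated array. UHRF1, which guides DNMT1, read 2293 units on the Dicer antibody array and 661 on the untreated array, a difference of 2.08. The chromatin remodeller HELLS read 428 units on the Dicer antibody array and 119.6 on the untreated array, a difference of 2.05. EZH2, the enzyme of Polycomb complex PRC2, was detected on all 4 arrays, at 764.5 units on the Dicer antibody array, 1278 on the exosome array, 269 on the array of MDA-MB-231 cells and 117 on the untreated array. Lower on the Dicer antibody array were the histone methyltransferase EHMT2, at 103.4 units on that array and 208.9 on the untreated array (−1.10), and the methyl-CpG binding protein MBD1, at 233 units on that array and 506 on the untreated array (−1.01).

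Markers of germ cells, which express these families, and of melanocytes and fibroblasts were read on all arrays. Of 11 germ cell markers none was detected on the Dicer antibody array, and 1 was on each of the exosome, MDA-MB-231 and untreated arrays, with summed signals of 619, 656, 621 and 585 units in that order of arrays. The germ cell genes DDX4 and DAZL were not detected on any array. Of 5 melanocyte markers, 3 were detected on the Dicer antibody array, none on the exosome array, none on the array of MDA-MB-231 cells and 1 on the untreated array, with summed signals of 554, 259.7, 255 and 304 units. MITF, the master regulator of melanocytes, read 234 units on the Dicer antibody array and 100.3 on the untreated array (1.39 on the log2 scale). TYRP1, a pigment enzyme, read 147 units on the Dicer antibody array and was not detected on the untreated array, at 46.3 units. The defining melanocyte genes MLANA and TYR were not detected on any array. Of the 10 fibroblast markers, all were at least 2-fold lower on the Dicer antibody array than on the untreated array, with a median log2 difference of −6.07. Among all named probes compared 16.2% were lower. Beside the marker counts, 50.4%, 5.61%, 5.74% and 50.6% of all named probes were detected on the Dicer antibody, exosome, MDA-MB-231 and untreated arrays. Whether these differences in cell type markers have a part in the signals of the cancer-testis families was not tested.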

How the data were processed

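Total RNA of 4 samples, 1 per group as the labels give them, was measured on a 1-colour Illumina bead array. The table deposited as non-normalized gives an intensity in linear units for each probe on each array, and the labels name neither the scanner software nor a background step. Beside each intensity stands a p-value per the file headers, read here as the detection p of that array, since its values are multiples of 1/770 that fall as the signal grows. The authors' value table holds intensity for 3 arrays with near-identical quantiles, by a normalization that is not stated. Its exosome column holds the detection p-value instead (largest gap 0.0026) and was not used. limma was named in the submitters' processing notes, its version not given in the sources used here. Probe names follow the platform annotation (30110 with 1 symbol, 8 with several, 17204 with none). They entered the comparisons only with 1 symbol.

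From the deposited intensity, log2 values were computed with background correction and quantile normalization by neqc (offset 16, background from the detection p-value) in limma 3.58.1 under R 4.3.3. The step was tried on simulated data, where 99.5% of 200 changed probes were recovered. These probes were bright before the change, and all simulated arrays shared 1 base signal. The trial therefore does not cover bounds or the split in detection. Counting used Python 3.11.15 with pandas 2.3.3 and numpy 2.4.6, and figures matplotlib 3.10.9. A comparison used probes detected (p below 0.01) on at least 1 of its 2 arrays. Where only 1 array detected a probe, the difference is a bound. It sets the bright array against whichever is higher on the dim array, the probe's own value or the least value detected there. Folds are the smallest over 6 scalings, which were neqc, the same without normalization, with median scaling, without background correction, on the deposited signals alone and with an offset of 50. A 2-fold difference (1 on the log2 scale) was counted. Background correction changes ratios, so a fold can differ from the ratio of the signals beside it. Signals of different probes depend on how each probe binds and are not levels to be set against each other. With 1 array per group no p-value, standard error or interval was computed.

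Every family probe detected on at least 1 array is named with its signals. Non-members were taken from lists, each gene by its probe with the highest mean signal. The members, lists and printed promoters were chosen with earlier results of these data known. Promoter windows come from RefSeq, build GRCh38.p14.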

Additional observations from a re-analysis of the deposited data

How the results depend on the processing

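No paired analysis was possible because each group holds 1 array. Counts here cover all 140 probes of the prefix rule. Between the Dicer antibody and untreated arrays 48 probes differed by 2-fold, all higher, and every alternative gave 32 (1 probe per gene) to 51 (no detection filter), 40 without background correction. The median log2 difference, 3.76, became 1.88 without background correction, 2.34 in the authors' value table and 0.22 with no detection filter, and otherwise lay between 2.75 and 4.40. Of 62 named probes' differences, 48 moved by over 1.5 times without background correction, 29 in the authors' value table and 15 with an offset of 50. Counts across the split in detection rested on the scaling. For Dicer antibody against MDA-MB-231, 18 became 51 with no normalization between arrays, 44 with median scaling, 49 with deposited signals alone and 71 with no filter. For exosome against Dicer antibody, 16 became 49, 45, 46 and 68 in the same order, and 29 at a detection p below 0.05. For exosome against untreated, the 2 higher probes were lost with no normalization and with deposited signals alone, where 1 probe, the prefix-only SSX2IP, was lower in place of them, and 9 differed at p below 0.05 and 35 with no filter. For MDA-MB-231 against untreated, the 2 higher probes were again lost, with SSX2IP as the 1 lower probe, under the same 2 settings, 6 differed at p below 0.05 and 34 with no filter, and the median of 2.50 reversed to −0.13 with no normalization. For exosome against MDA-MB-231, 0 became 1 at p below 0.05 and 27 with no filter. Detected at p below 0.05 were 9, 6 and 12 probes on the exosome, MDA-MB-231 and untreated arrays, in place of 2, 2 and 3. Apart from the scalings and filters named, the cause of these shifts was not tested. Dim probes set the limit, since a probe under the lowest detected signal has only a bound.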

Other observations

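A list of 8 genes with a MAGE domain, MAGED1, MAGED2, MAGED4, MAGEH1, MAGEF1, MAGEL2, NDN and NSMCE3, was read beside the families. Of these, 6 were detected on the Dicer antibody array, 2 on the exosome array, 2 on the array of MDA-MB-231 cells and 7 on the untreated array. The shares of all named probes detected were 50.4%, 5.61%, 5.74% and 50.6% in that order of arrays. Of 7 compared between the Dicer antibody and untreated arrays 4 were at least 2-fold lower and none was higher (median log2 difference −1.26). Among all named probes compared 16.2% were lower and 14.6% higher. MAGED1, which is expressed in most tissues, was detected on all 4 arrays, at 2888 units on the Dicer antibody array, 2947 on the exosome array, 3028 on the array of MDA-MB-231 cells and 8558.5 on the untreated array. MAGED2 read 218 units on the Dicer antibody array and 739.7 on the untreated array, and MAGEH1 read 116 units on the Dicer antibody array and 268 on the untreated array. NDN, the imprinted gene for necdin, was at least 1.86-fold lower, at 63.6 units on the Dicer antibody array (not detected) and 228 on the untreated array.

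Genes for proteins that MAGE and SSX antigens are known to bind were detected on both of these arrays. All 7 measured partners were detected on the Dicer antibody array and on the untreated array, where 50.4% and 50.6% of all named probes were. None was detected on the exosome or MDA-MB-231 array, which detected only 5.61% and 5.74% of all named probes. None differed by 2-fold between the Dicer antibody and untreated arrays (median log2 difference −0.01), where 14.6% of all named probes were higher and 16.2% lower. TRIM28, the ubiquitin ligase bound by MAGEA3, MAGEA6 and MAGEC2, read 842 units on the Dicer antibody array and 1396 on the untreated array, a log2 difference of −0.49. SS18, the fusion partner of SSX genes in synovial sarcoma, read 629 units on the Dicer antibody array and 728 on the untreated array.

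Of 4 measured leukocyte markers, 2 were detected on the Dicer antibody array, 1 on the exosome array, 1 on the array of MDA-MB-231 cells and 2 on the untreated array. The shares of all named probes were 50.4%, 5.61%, 5.74% and 50.6% in that order. CD14 read 625 units on the Dicer antibody array and 298 on the untreated array, and CD68 read 410.1 units on the Dicer antibody array and 2488 on the untreated array.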
